A study of Mus musculus with 4 samples.

Results

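The cells described here are the 340 blood cells that the study annotated as plasmablasts and placed in its cluster 6, of 5794 cells in all. They were chosen by those 2 labels alone, and they make up most of the 474 cells annotated plasmablasts; 109 others lie in cluster 9 and 25 in other clusters. In most of the genes named here for secreting and young B cells, their RNA goes against the annotation. Jchain, the joining chain of secreted antibodies, had 0 UMIs (unique molecular identifiers, each standing for 1 captured transcript) in all 340 cells, which allows a share of up to 0.882% of cells with a UMI, while genes of newly formed B cells, such as Vpreb3, Cd24a, Cd93, Myb, Sox4 and Akap12, were at least 2-fold higher than in the cells annotated B cells in every mouse. They are called cluster 6 cells below, since Jchain, Prdm1, Sdc1 and Derl3, genes of antibody-secreting cells, were at or near 0, and Xbp1, Irf4 and Mzb1 stood at levels that overlapped those of B cells. Some features did go with the annotation. Txndc5, also chosen as a plasmablast marker, was at least 2-fold higher than in B cells in every mouse. The summed plasmablast list was above B cells in every mouse. MHC class II genes, which plasmablasts also lower, were lower than in B cells.

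The blood came from wild-type C57BL/6 mice, female and 3.2 ± 0.3 months old. In the treated mice (Maus3_2 and Maus6) the left ear was exposed for 10 min to non-thermal plasma (NTP), an ionised argon gas from a jet, under anaesthesia, and the untreated mice (Maus2_2 and Maus4_2) received the anaesthesia only. Blood was drawn from the vena cava 120 min after the exposure in treated mice and 120 min after the onset of anaesthesia in untreated mice, so that the time from the onset of anaesthesia to sampling was longer in treated mice, and this difference cannot be told apart from the treatment. Mononuclear cells were isolated on a Ficoll gradient, and each mouse gave 1 library of 3' ends of single-cell transcripts. The mouse is the replicate, with n = 2 per group, and no batch is given in the labels.

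B cells are made in the bone marrow and leave it as transitional B cells. Transitional cells carry CD93 and much CD24 and surface IgM but little IgD, and they lose the first and gain IgD and CD23 (encoded by Fcer2a) as they become mature follicular cells. Plasmablasts are at the other end of the lineage. They arise when a B cell is activated, divide, switch on the secretory programme of Prdm1, Xbp1 and Irf4, and lower the B cell genes Pax5, Ms4a1 and the MHC class II genes.

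Cluster 6 held 125 cells of Maus3_2, 105 of Maus6, 46 of Maus2_2 and 64 of Maus4_2, with 494742, 366348, 195485 and 200457 UMIs. A cluster 6 cell had a median of 3464.5 UMIs, a B cell 3364 and a cluster 9 cell 3037. Levels are given in CPM, the UMIs of a gene over all UMIs of a population in 1 mouse, scaled to the same total in every sum. Where 4 values stand in a row they belong to Maus3_2 and Maus6 (treated) and then Maus2_2 and Maus4_2 (untreated). A library barcode was found in more than 1 mouse in 4 cases, which concerned 1 cluster 6 cell. One cluster 6 cell of Maus2_2 held 986 haemoglobin UMIs of its 5339 UMIs, and results that rest on it are given with and without it.

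The genes of the B lineage were high in cluster 6. Cd79a, a signalling chain of the B cell receptor, stood at 3669, 3488, 2757 and 3382 CPM, against 2279 ± 174 CPM (SD, n = 4 mice) in B cells and 5.15 CPM in T cells. Ms4a1, which encodes CD20, stood at 1676, 1575, 1550 and 1671 CPM, against 523 ± 15.8 CPM in B cells, and Ighm, the heavy chain of IgM, at 5385, 4989.8, 4727 and 5497 CPM, against 2234 ± 100.2 CPM. For Ms4a1 and Ighm the 4 mice lay above all B cell values, with log2 ratios of cluster 6 over B cells of 1.61 (1.55 to 1.74) and 1.19 (1.16 to 1.27) (median over mice, lowest and highest mouse). Pax5, the transcription factor that holds B cell identity and is switched off in plasma cells, stood at 853, 936, 849 and 1018 CPM, against 561 ± 58.2 CPM in B cells.

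Of the plasmablast and plasma cell list, 17 of 18 genes were in the table and 15 had at least 20 UMIs in both populations together. A gene was counted as higher or lower when the ratio to B cells was at least 2-fold the same way in each of the 4 mice; 1.88% of the 11219 genes so compared were higher and 2.67% lower. Because the clusters were formed from these same genes, the differences between clusters are a description and no test was made. Only Txndc5 of the list was counted as higher, and 0 were lower. Txndc5, a disulfide isomerase of the endoplasmic reticulum, stood at 255, 224, 184 and 185 CPM, against 71.99 ± 9.62 CPM in B cells. Eaf2 and Hsp90b1, an elongation factor partner and a chaperone, had ratios of 1.34 (0.94 to 1.54) and 1.05 (0.79 to 1.27). Neither reached 2-fold in every mouse. Of the 15 genes of the list, 12 had a median ratio above 0, beside 5917 of all 11219 genes. The sum of the list was above B cells, however, at 1340.3 to 1461 CPM against 867 to 995 CPM, with no overlap between mice. Txndc5, chosen here as a plasmablast marker, and Hsp90b1, at 301 ± 9.28 CPM against 148 ± 29.4 CPM, carried much of that difference.

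Unlike Txndc5, the genes of antibody secretion named next were at the level of B cells or at the limit of detection. Xbp1 had 15, 6, 6 and 5 UMIs, or 25.6 ± 6.68 CPM against 21.1 ± 4.66 CPM in B cells. Irf4 stood at 77.3 ± 19.2 CPM against 67.97 ± 13.3 CPM, and Mzb1, a chaperone of IgM assembly, at 161 ± 24.2 CPM against 179.5 ± 19.2 CPM. The ranges of these 3 genes overlapped between the populations. Prdm1, the repressor that ends the B cell programme, had 8 UMIs in all, Sdc1 (CD138) had 6 and Derl3 had 2. With 0 UMIs of Jchain in 1257032, a level of up to 2.39 CPM is allowed (3 counts; counting error only). Jchain had a single UMI in the 3130 B cells and none in cluster 9. The median log2 ratio of the 15 genes was 0.39, beside 0.04 over all 11219 genes.

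Most of the transitional B cell genes were higher. Of 11 listed genes 8 were in the table (Rag1, Rag2 and Igll1 were not analysed here), 7 were compared, 6 were counted as higher and 0 as lower, and the median log2 ratio was 2.73. The summed level of the list was 2088, 2358, 1596 and 2394 CPM in Maus3_2, Maus6, Maus2_2 and Maus4_2, and 351 to 435 CPM in B cells. The populations did not overlap in any mouse. None of the 4 author clusters of B cells came near: their mean summed levels were 411 ± 41.9 CPM in cluster 0, 439 ± 74.4 CPM in cluster 1, 339 ± 29.4 CPM in cluster 2 and 384 ± 139 CPM in cluster 10 (SD, n = 4 mice).

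Vpreb3, a chain that accompanies the receptor during its assembly in young B cells, had the highest count of the list, with 582, 463, 151 and 248 UMIs. Its level was 1176, 1264, 772 and 1237 CPM, against 178 ± 13.5 CPM in B cells, a ratio of 2.73 (2.15 to 2.86). Vpreb3 UMIs were found in 83.5% of cluster 6 cells, 38.6% of B cells and 0.142% of T cells, and after each cell was thinned to 1000 UMIs in 57.9%, 15.8% and 0.0472%. Maus2_2 was the lowest of the 4 mice in cluster 6 and still lay far above its own B cells.

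Cd24a, the heat-stable antigen used to stain transitional cells, stood at 481, 606, 450.2 and 609 CPM, against 151 ± 30.4 CPM in B cells, a ratio of 1.86 (1.74 to 1.91). Cd93, whose product is the AA4.1 antigen, had 17, 8, 4 and 10 UMIs, with a ratio of 2.67 (2.28 to 4.16). A Cd93 UMI was seen in 10.6% of cluster 6 cells, 1.21% of B cells and 0 of 2117 T cells, which allows a share of up to 0.142%. Thinned to 1000 UMIs, the shares were 3.53% and 0.512%.

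The other members counted as higher were 2 transcription factors of early lymphocytes and a scaffold. Myb had 19, 15, 5 and 15 UMIs and a ratio of 3.48 (2.60 to 4.37). Sox4 stood at 70.7, 87.3, 81.8 and 69.8 CPM, against 8.80 ± 2.89 CPM, a ratio of 3.14 (2.45 to 3.83). Akap12, which anchors protein kinase A, had 133, 115, 47 and 61 UMIs and the highest ratio of the list, 3.54 (3.32 to 3.75). Myb and Sox4 UMIs also occurred in 6.66% and 6.80% of T cells, against 11.2% and 20.6% of cluster 6 cells. Marcksl1, the seventh gene compared, had a ratio of -0.05 (-1.74 to 1.28) and spread over both sides of 0, and Vpreb1, the surrogate light chain of pre-B cells, had 1 UMI.

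**Figure D1:**
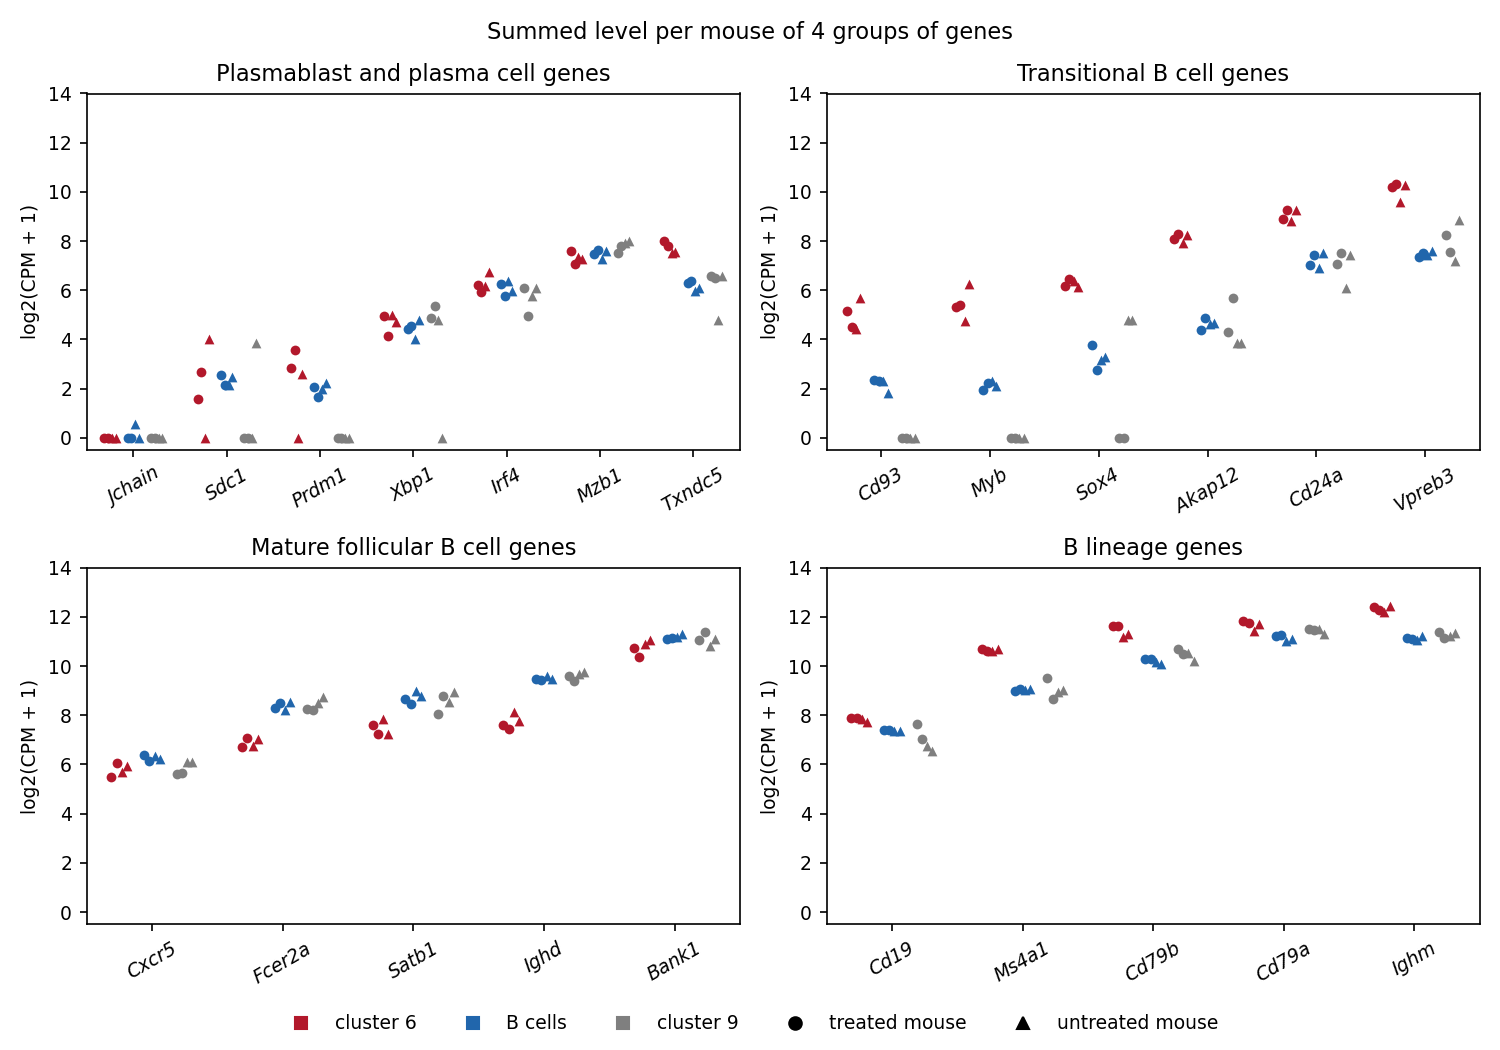
Level of 23 genes, as log2(CPM + 1), in cluster 6 (red), B cells (blue) and cluster 9 (grey), 1 point per mouse, circles for treated and triangles for untreated mice. In the first panel Xbp1, Irf4 and Mzb1 lie at similar heights in cluster 6 and B cells, and Txndc5 is higher in cluster 6. Jchain, Sdc1 and Prdm1 rest on few or no UMIs in cluster 6. The 6 transitional genes are higher in cluster 6 in all 4 mice, and Fcer2a, Satb1 and Ighd are lower.

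The promoter of Vpreb3 is shown because it is the best-counted transitional gene. RefSeq places the window from 250 bases before to 50 bases after its start at chr10:75948050-75948349 (GRCm38.p6, plus strand). Capitals mark the octamer ATGCAAAT, the motif bound by the Oct factors of B cells, here found on the reverse strand 45 bases before the start.

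Vpreb3: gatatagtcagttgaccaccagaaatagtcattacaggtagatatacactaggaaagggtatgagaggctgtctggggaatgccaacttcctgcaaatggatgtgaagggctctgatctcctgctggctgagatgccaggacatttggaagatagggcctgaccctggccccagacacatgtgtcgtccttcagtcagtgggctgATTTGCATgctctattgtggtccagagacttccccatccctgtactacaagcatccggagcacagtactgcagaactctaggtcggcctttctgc

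The octamer, searched on both strands, was in 1.74% of all 32851 promoter windows and in 1 of the 8 matched transitional genes, Vpreb3 itself. It was in 0 of 7 matched genes of the mature list, 0 of 7 of the MHC class II list and 2 of 11 of the receptor signalling list, Blnk and Prkcb.

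Mature follicular genes went the other way, but not as a block. All 10 genes of the list were compared, 3 were counted as lower and 1 as higher, and the median log2 ratio was -0.49. Fcer2a, which encodes the IgE receptor CD23, stood at 103, 134, 107 and 129.7 CPM, against 334 ± 36.7 CPM in B cells. Its ratio was -1.48 (-1.59 to -1.43), and the mice did not overlap. Satb1, a chromatin organiser, had a ratio of -1.20 (-1.54 to -1.04).

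Ighd, the heavy chain of IgD, had the largest counts among the lower members, with 97, 63, 55 and 44 UMIs, and stood at 196, 172, 281 and 219.5 CPM, against 722 ± 30.1 CPM in B cells, a ratio of -1.79 (-2.00 to -1.44). Together with the higher Ighm this gave 27.5, 29.0, 16.8 and 25.1 Ighm UMIs per Ighd UMI in Maus3_2, Maus6, Maus2_2 and Maus4_2, against 3.13, 3.22, 2.78 and 3.28 in their B cells and 3.48, 3.34, 2.92 and 2.97 in cluster 9. The ratio in Maus2_2 was the lowest of cluster 6 and still above that of every B cell sum. In T cells, which should lack both, Ighm stood at 135 ± 16.03 CPM and Ighd at 2.21 ± 0.953 CPM. Igha had 0 UMIs in cluster 6, and Ighg2b and Ighg3 had 1 and 0, so these class-switched heavy chains were at the limit of detection. Of 12 listed constant region genes of immunoglobulins only 9 were analysed, so other switched chains are not covered.

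Apart from Tnfrsf13c, the remaining mature genes of the list differed less. Bank1, an adaptor of B cell receptor signalling, stood at 1708, 1318, 1934 and 2115 CPM, against 2321 ± 155 CPM, and Cxcr5, the follicular homing receptor, at 44.5, 65.5, 51.2 and 59.9 CPM, against 77.2 ± 6.01 CPM. Ccr7 and Cd22 were close to B cells, with ratios of 0.06 (-0.39 to 0.29) and 0.26 (0.00 to 0.45). Tnfrsf13c, the receptor for the survival factor BAFF, was the exception of the list, at 291, 409, 261 and 374 CPM, against 131 ± 9.10 CPM, a ratio of 1.33 (1.08 to 1.57).

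The genes that present antigen to helper T cells were lower, which is also the direction given above for plasmablasts. All 10 MHC class II genes listed had a median ratio under 0, beside 5302 of all 11219 genes. Of the 10, 3 were counted as lower, and the median over the list was -0.95. The summed level was 13603, 13725, 13019 and 11100 CPM in the 4 mice, against 21164 to 23179 CPM in B cells. H2-Aa, an alpha chain, stood at 1160.2, 1190.1, 1371 and 933 CPM, against 3346 ± 124 CPM, with a ratio of -1.55 (-1.82 to -1.22). H2-Eb1, a beta chain, and H2-Oa, which modulates peptide loading, had ratios of -1.52 (-1.60 to -1.07) and -1.54 (-2.26 to -1.06), and H2-Ab1 had -1.09 (-1.56 to -0.92). Cd74, the invariant chain, differed least, at -0.42 (-0.58 to -0.34), and Ciita, the transactivator of the whole group, had -0.63 (-0.91 to -0.39).

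The promoters of H2-Aa and H2-Eb1 are shown because these genes are lower together. They lie at chr17:34287774-34288073 (minus strand) and chr17:34305617-34305916 (plus strand) of GRCm38.p6 in RefSeq, each 300 bases long. Capitals mark the Y box CTGATTGG, a CCAAT-type element of class II promoters, 51 and 62 bases before the starts.

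H2-Aa: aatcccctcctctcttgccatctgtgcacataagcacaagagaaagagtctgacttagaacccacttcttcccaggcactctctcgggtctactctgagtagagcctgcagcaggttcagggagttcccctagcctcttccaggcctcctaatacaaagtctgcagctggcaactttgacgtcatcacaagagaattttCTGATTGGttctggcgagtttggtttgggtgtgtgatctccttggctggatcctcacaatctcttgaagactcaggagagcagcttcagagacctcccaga
H2-Eb1: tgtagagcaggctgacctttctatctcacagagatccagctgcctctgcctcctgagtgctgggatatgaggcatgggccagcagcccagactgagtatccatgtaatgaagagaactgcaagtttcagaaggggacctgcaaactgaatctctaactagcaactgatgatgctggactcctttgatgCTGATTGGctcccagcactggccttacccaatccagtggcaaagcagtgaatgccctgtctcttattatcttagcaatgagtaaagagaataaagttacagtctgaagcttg

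The Y box, searched on both strands, was in 3 of the 7 matched class II genes, H2-Aa, H2-Eb1 and H2-Oa, and in 4.10% of all windows. It was also in 1 of 8 matched transitional genes, Sox4, which was higher in cluster 6, in 1 of 7 mature genes, Fcer2a, and in 0 of 11 receptor signalling genes. A match is a description of these letters and not evidence of binding.

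Activation and migration genes held further lower members. In the activation list 3 of 16 genes were counted as lower and 0 as higher: Cd83 and Cd86, a maturation marker and a costimulatory ligand, with ratios of -1.44 (-1.66 to -1.07) and -1.49 (-1.81 to -1.28), and Traf1, with 2 of the 1257032 UMIs of cluster 6 against 183 of 11147828 in B cells, a level 10.3-fold (2.82 to 85.8) higher (95% exact interval, counting error only). Immediate early genes were near B cells or thinly counted: Junb had a ratio of -0.05 (-0.12 to 0.30), and Fos, Egr1 and Nr4a1 had 11, 17 and 7 UMIs. In the trafficking list 3 of 10 genes were counted as lower. Gpr183, the oxysterol receptor that positions B cells in the follicle, stood at 44.5, 49.1, 46.04 and 59.9 CPM, against 264 ± 22.8 CPM. Itgb7, an integrin chain, had a ratio of -1.76 (-2.11 to -1.60), and Ccr6 had 4 UMIs against 400 in the larger B cell sum, where it was 11.3-fold (4.37 to 41.6) higher over the pooled counts. S1pr1, the receptor for egress into blood, had a ratio of -0.08 (-0.26 to 0.06).

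Most receptor signalling genes and lineage factors had ratios above 0, where 5917 of all 11219 genes had a median above 0. Few of them reached 2-fold in every mouse. Of 15 genes of B cell receptor signalling, 14 had a median ratio above 0 and 3 were counted as higher, the receptor chain Cd79b, the inhibitory receptor Cd72 and the phosphatase Ptpn6, with ratios of 1.28 (1.01 to 1.34), 1.66 (1.29 to 1.68) and 1.25 (1.19 to 1.42). Cd79b stood at 3188, 3139, 2302 and 2559 CPM, against 1186 ± 86.9 CPM in B cells. The kinases Syk and Lyn and the adaptor Blnk had ratios of 0.42 (0.30 to 0.62), 0.42 (0.32 to 0.52) and 0.94 (0.84 to 1.27), and Btk, the 1 gene below 0, had -0.09 (-0.35 to -0.01). Among 14 lineage factors 12 had a median above 0 and only Spib, an Ets factor, was counted as higher, at 359.8, 330.3, 292 and 409 CPM, against 74.8 ± 5.38 CPM. Ebf1 and Foxo1, which act from the earliest B cell stages, had ratios of 0.59 (0.37 to 0.87) and 0.84 (0.70 to 1.14), whereas Klf2, a factor of quiescent recirculating cells, had -0.36 (-0.67 to -0.25).

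The survival list had 6 of 8 genes above 0, beside 5917 of 11219 over all genes, and 0 counted either way. Bcl2 had a ratio of -1.07 (-1.65 to -0.67), whereas Mcl1, a related protector, had 0.67 (0.41 to 0.70), the proapoptotic Bcl2l11 (BIM) 0.77 (0.57 to 1.06) and the TACI receptor gene Tnfrsf13b 1.15 (0.92 to 1.48). The interferon, oxidative stress and glucocorticoid lists had 9, 9 and 6 genes compared, 0 counted either way, and medians of 0.35, 0.12 and -0.08.

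**Figure D2:**
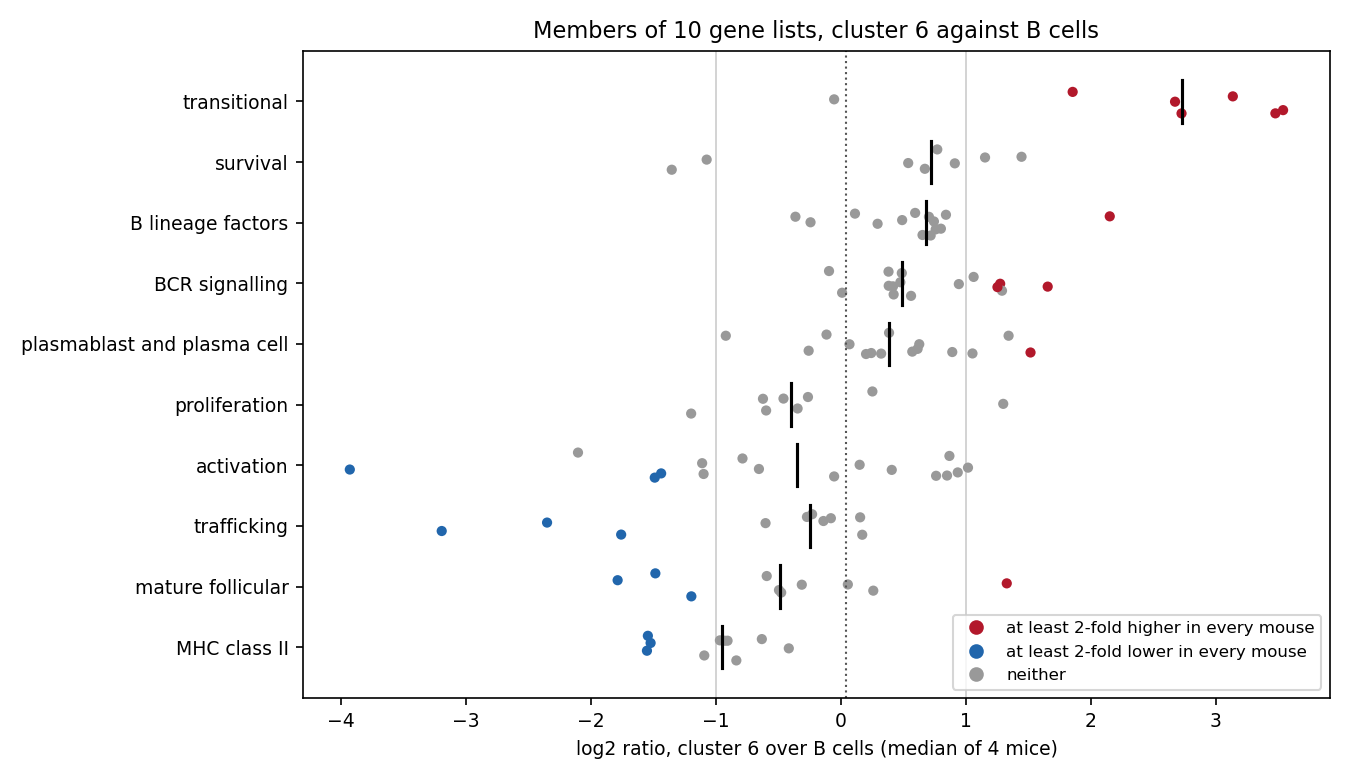
Median log2 ratio over 4 mice of cluster 6 over B cells for the members of 10 gene lists with at least 20 UMIs, 1 point per gene, with the list median as a bar and the median of all 11219 genes as a dotted line. The transitional list has its median at 2.73 with 6 red points, and the MHC class II list at -0.95 with 10 of 10 points left of 0.

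Lists of the other B cell states gave no group that was higher as a whole. Of the marginal zone list, 5 genes were compared: Cr2 (CD21) was counted as lower, at 34.4, 38.2, 40.9 and 39.9 CPM, against 104 ± 12.3 CPM, while Myof and Cd9 had ratios of 1.62 (0.85 to 2.11) and 0.38 (-0.09 to 1.46). S1pr3 had 3, 5, 0 and 0 UMIs. Of the B-1 list, 1 of 6 was counted as higher, Bhlhe41, a repressor, with 32 UMIs and a ratio of 2.20 (1.30 to 2.98); Cd5, Spn and Zbtb32 had 3, 7 and 0 UMIs. Of the memory and age-associated list, 3 of 6 were counted as lower: Apoe, a lipid carrier, at 24.3, 19.1, 15.3 and 9.98 CPM against 309.6 ± 38.7 CPM, Pdcd1lg2, a ligand of PD-1, with a ratio of -2.52 (-3.09 to -1.86), and Nt5e, with 0 UMIs against 22 in B cells, a level within what 0 UMIs allow. Zeb2 had a ratio of 1.46 (0.96 to 1.65) and Tbx21 and Itgax had 0 and 1 UMIs.

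Proliferation genes were thinly counted. Mki67 had 5 UMIs in cluster 6, Top2a 7 and Birc5 0, and Mki67 UMIs were seen in 1.47% of cluster 6 cells and 0.447% of B cells (0.588% and 0.128% when thinned), and in 0.709% of T cells. Of 8 proliferation genes compared, 0 were counted either way, and Hmgb2, the most abundant, had a ratio of -0.26 (-0.52 to -0.17). Of the germinal centre list, 3 genes were compared and 0 counted. Bcl6 had 27 UMIs and a ratio of -0.87 (-1.78 to 0.05), and Rgs13 had 3 UMIs, all in Maus3_2.

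Across all genes, 211 were counted as higher (1.88%) and 300 as lower (2.67%) of 11219, and the variable segments of immunoglobulins and T cell receptors among them were 2 and 1. The lower count rests on thin counts, since 213 of the 300 had at most 3 UMIs in cluster 6. With a minimum of 100 UMIs, 137 were higher and 110 lower. The scaling mattered as well: with TMM factors the median over all genes went from 0.04 to -0.19, and 142 were higher against 388 lower. Without Maus2_2, 319 were higher.

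The 10 genes with the largest ratios upwards were Gm32569, Map2, Wfdc21, Agbl1, Reln, Slamf9, Cplx2, Atp1b1, Cfp and Nedd4. Agbl1, a member of the cytosolic carboxypeptidases, was by far the best counted, with 794, 380, 312 and 258 UMIs. It stood at 1605, 1037, 1596 and 1287 CPM, against 33.7 ± 9.93 CPM in B cells, a 39.2-fold difference, and had a UMI in 65.0% of cluster 6 cells, 3.83% of B cells and 1.89% of T cells (45.3%, 1.92% and 0.378% when thinned). Atp1b1, the beta subunit of the sodium pump, stood at 277, 164, 189 and 195 CPM, against 9.28 ± 2.03 CPM, and Cplx2, a regulator of vesicle fusion, at 129, 95.5, 102 and 185 CPM, against 4.08 ± 2.62 CPM.

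Wfdc21 had 66, 68, 10 and 30 UMIs against 23 in all B cells, with its lowest level in Maus2_2. Cfp, which encodes properdin of the complement system, had 74 against 25 UMIs, Nedd4, a ubiquitin ligase, 132 against 62, Reln, a secreted glycoprotein, 57 against 15, Slamf9, a receptor of the SLAM family, 35 against 11, and Map2, a microtubule protein, 58 against 8. Gm32569 had 48 UMIs against 1, a pooled ratio of 426-fold (72.8 to 17159) (95% exact interval, counting error only). The ratios of the 10 genes ran from 4.22 to 7.09 on the log2 scale, all in the same direction in each mouse.

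The 10 genes with the largest ratios downwards were counted in at most 5 UMIs in cluster 6, so their fitted ratios are not used. Chst10, a sulfotransferase, had 2 UMIs against 406 in B cells, and was 22.9-fold (6.30 to 189.7) higher in B cells over the pooled counts. Atxn1 had 5 against 510, or 11.5-fold (4.90 to 35.6). Dusp4, a MAP kinase phosphatase, and Gm20429 had 0 UMIs and were at least 5.45-fold and at least 5.83-fold higher in B cells, taking 3 counts over cluster 6 as the floor. Ildr1, Ryr2, Plbd1, Ddx25, Vkorc1 and Gm39383 had 1 UMI each in cluster 6 and 163 to 228 UMIs in B cells, and for Ildr1 the pooled ratio was 25.7-fold (4.57 to 1019.9) and for Ryr2 18.4-fold (3.25 to 730.4).

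The transitional genes differed cell by cell as well as in the sums. In cells thinned to 1000 UMIs, which left out 3 shallower B cells, the 8 transitional genes together had a mean of 2.41 UMIs per cluster 6 cell and 0.402 per B cell. The whole mature list of 10 genes had 3.67 and 5.41, with a UMI in 94.1% and 98.7% of cells. Fcer2a and Ighd, which encode CD23 and IgD, were taken from it with their lower level known, and together had 0.288 and 1.06, while the other 8 mature genes had 3.38 and 4.36. At least 1 UMI of the transitional genes was found in 81.2% of cluster 6 cells, or 79.2, 85.7, 78.3 and 79.7% by mouse, against 31.3% of B cells. A UMI of Fcer2a or Ighd was found in 22.6% of cluster 6 cells and 62.5% of B cells.

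Cells with transitional UMIs and none of Fcer2a or Ighd made up 65.0% of cluster 6 and 12.0% of B cells, and cells with UMIs of those 2 genes alone 6.47% and 43.2%. Both kinds were found in 16.2% and 19.3%. The choice of 2 lower genes sets this split. With all 10 mature genes, cells with transitional UMIs alone were 5.29% and 0.288%, cells with mature UMIs alone 18.2% and 67.6%, and cells with both 75.9% and 31.0%, so most cluster 6 cells held UMIs of both lists. At 1000 UMIs per cell an absent UMI does not show that a gene was silent.

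**Figure D3:**
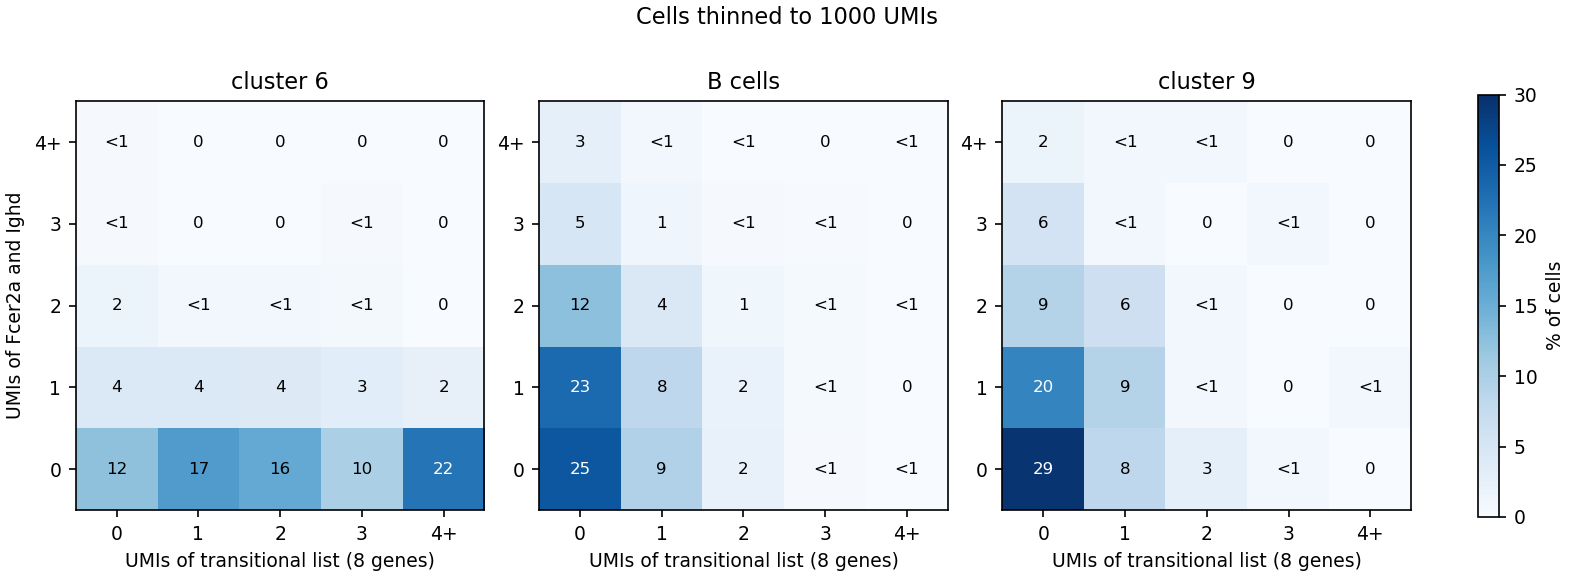
Percent of cells by their UMIs of the 8 transitional genes (horizontal axis) and of Fcer2a and Ighd (vertical axis), after thinning every cell to 1000 UMIs, for cluster 6, B cells and cluster 9. Most of the cluster 6 cells lie in the bottom row, and most of the other cells in the left column.

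The light chains differed too. B cells join either a kappa or a lambda light chain to the heavy chain, and mouse B cells mostly use kappa. Cells were called kappa-dominant when Igkc had more UMIs than Iglc1, Iglc2 and Iglc3 together, and lambda-dominant in the opposite case. In cluster 6, 17.6, 11.4, 17.4 and 21.9% of the cells were lambda-dominant, 56 of 340 cells, against 3.36 to 5.74% in B cells. Each mouse had a larger share in cluster 6 than in its B cells. The B cell shares leave out the 101 lambda-dominant cells of cluster 9 and would be higher with them. The share against B cells and cluster 9 combined was not computed.

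Iglc1 was the light chain that differed most, at 2149, 1785, 1601 and 2659 CPM, against 128 ± 19.7 CPM in B cells, a 16.1-fold difference. The size depended on the reference, since cluster 9 holds cells rich in Iglc1 (4588 ± 341 CPM) that are not among the B cells. Against B cells and cluster 9 combined the difference was 7.31-fold (5.86 to 9.96 over mice). It was not confined to lambda-dominant cells. Of the 280 kappa-dominant cluster 6 cells, 78.2% had an Iglc1 UMI, with a median of 3, against 23.8% of 2946 kappa-dominant B cells, with a median of 0. Thinned to 1000 UMIs the shares were 50.7% and 9.58%, and 0.425% of T cells had an Iglc1 UMI without thinning.

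Igkc itself stood at 11068, 10094, 9418 and 8879.7 CPM, against 7262 ± 502 CPM in B cells, a ratio of 0.46 (0.28 to 0.56), and Iglc2 and Iglc3 had ratios of 0.86 (0.42 to 1.31) and 0.78 (0.51 to 0.93). The Iglc genes are near copies, so how reads were split among them is uncertain. The transitional genes were high in both light chain classes: their mean was 2.34 UMIs in kappa-dominant and 2.73 UMIs in lambda-dominant cluster 6 cells, against 0.401 and 0.446 in B cells of the 2 classes. In thinned cells pooled over mice, a transitional UMI was in 78.9% of 280 kappa-dominant and 91.1% of 56 lambda-dominant cluster 6 cells. A UMI of Fcer2a or Ighd was in 25.7% and 8.93%. Cells are not replicates and these shares were not split by mouse, so a difference between the classes was not tested.

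**Figure D4:**
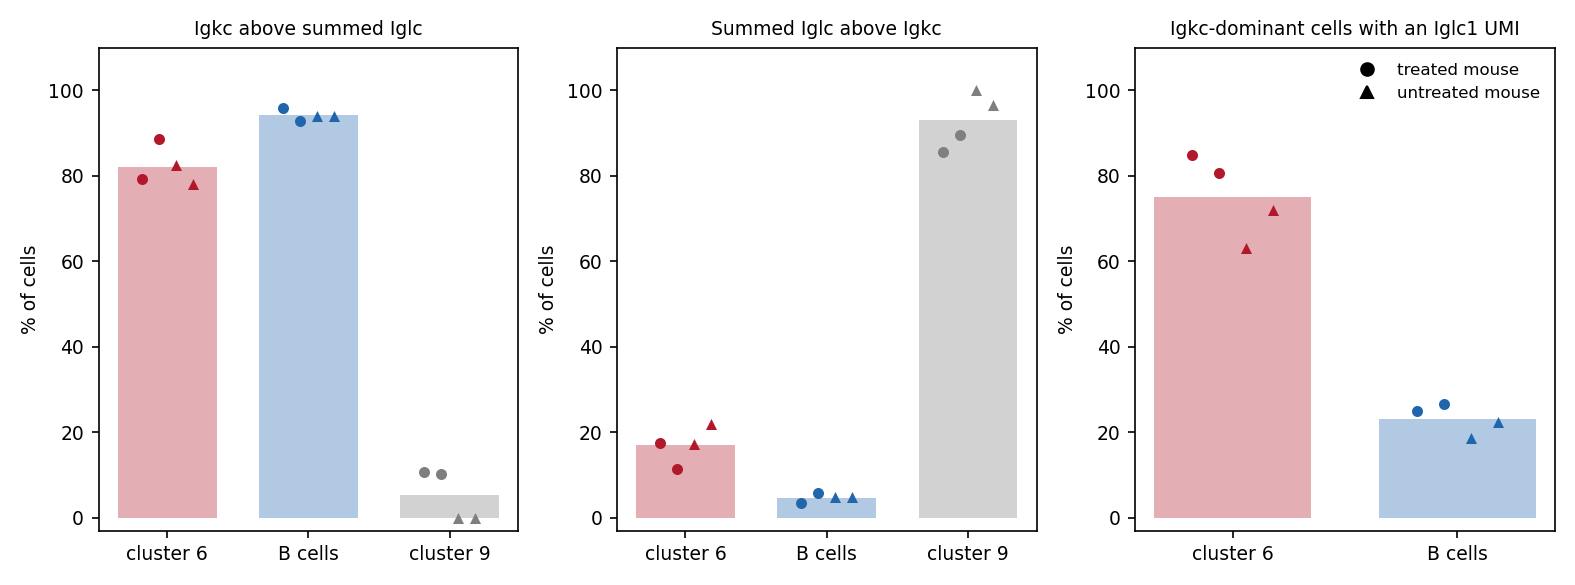
Percent of cells per mouse that were kappa-dominant (first panel) or lambda-dominant (second panel), and percent of kappa-dominant cells with an Iglc1 UMI (last panel), for cluster 6, B cells and, in the first 2 panels, cluster 9. Points are mice and bars their means; cluster 6 lies between B cells and cluster 9 in the first 2 panels and above B cells in the last.

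The 109 plasmablasts of cluster 9 share the annotation and differed in their light chains. They were lambda-dominant in 92.7% of cells, and each of them had an Iglc1 UMI. Of 7247 genes compared by the same rule, 197 were higher in cluster 6 (2.72%) and 29 lower (0.400%), with 1 variable segment among the higher ones; the median ratio over all genes was 0.32. With 355762 UMIs in cluster 9, 112 of the 197 had at most 3 UMIs there, and 63 were higher and 18 lower at a minimum of 100 UMIs. Without Maus2_2 the counts were 301 and 57, and 50 and 45 were lower without Maus6 and Maus4_2.

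The same lists set cluster 6 apart from cluster 9 as from B cells. Of the 7 transitional genes compared, 6 were counted as higher than in cluster 9, with a median log2 ratio of 3.21, and Cd93 and Myb had 0 UMIs in cluster 9. Vpreb3 stood at 277 ± 143 CPM in cluster 9 and Akap12 at 23.9 ± 17.5 CPM. Of the mature list 2 genes were lower, Fcer2a and Ighd, with ratios of -1.62 (-1.72 to -1.15) and -1.97 (-1.97 to -1.55), and of the 10 MHC class II genes 5 were lower, with a median of -1.21. In cells thinned to 1000 UMIs, 33.9% of cluster 9 cells had a transitional UMI and 58.7% a UMI of Fcer2a or Ighd, beside 31.3% and 62.5% of B cells.

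Of 11 genes of the plasmablast list compared with cluster 9, 0 were counted either way. As a sum the list stood at 857 to 1137 CPM in cluster 9, below every mouse of cluster 6, with a median ratio of 0.52. Jchain had 0 UMIs in both clusters, and Prdm1 had 0 in cluster 9.

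The 10 genes with the largest ratios over cluster 9 were Wfdc21, Fam129c, Cplx2, Nedd4, Cfp, Cd36, Agbl1, Gm32569, Map2 and Sox5. Of the 211 genes higher than in B cells, 107 (50.7%) were also among the 197 higher than in cluster 9, of which they are 54.3%; the cluster 6 counts are the same in both comparisons. Sox5, a transcription factor of the SoxD group, stood at 285, 328, 358 and 474 CPM, against 19.0 ± 17.8 CPM in cluster 9 and 29.7 ± 6.56 CPM in B cells. Fam129c, of the Niban family, had 162 against 1 UMI and Cd36, a scavenger receptor, 72 against 2 UMIs, pooled ratios of 45.8-fold (8.11 to 1822) and 10.2-fold (2.72 to 85.7). Wfdc21, Nedd4 and Cfp had 0 UMIs in cluster 9 and were at least 16.4-fold, at least 12.5-fold and at least 6.98-fold higher in cluster 6, Gm32569 and Map2 at least 4.53-fold and at least 5.47-fold.

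In the other direction the leading genes were Apoe, Rapgef4, Fxyd5, Pglyrp1, Alcam, Gvin1, Stat4, Gpr183, Rasgef1b and Setbp1. Apoe stood at 24.3, 19.1, 15.3 and 9.98 CPM in cluster 6 and 252 ± 91.6 CPM in cluster 9. Rapgef4, an exchange factor that senses cAMP, had -2.90 (-3.18 to -1.65), Alcam, an adhesion molecule, -2.19 (-2.77 to -1.21), and Stat4, a transducer of cytokine signals, -2.12 (-2.93 to -1.76). These 4 genes were also lower than in B cells, with median ratios of -4.03, -2.88, -2.34 and -3.18. Of the 29 genes lower than in cluster 9, 21 (72.4%) were lower than in B cells too, or 7.0% of those 300. The 7.0% is limited by counts. Only 7247 of the 11219 genes had enough UMIs to be compared with cluster 9, and 213 of the 300 had at most 3 UMIs in cluster 6. It does not show that the rest differ between cluster 9 and B cells.

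RNA of other cell types was scarce in cluster 6. The summed T cell list was 14.97 to 86.96 CPM, against 4809 CPM in T cells and 17.8 to 29.5 CPM in B cells, with Cd3e at 1 UMI and Cd8b1 at 0. The NK list was 4.99 to 13.6 CPM, with Klrb1c at 0. In the monocyte list, at 205 to 273 CPM, Cst3 made up most, Csf1r had 1 UMI and Cd14 0; B cells had 181 to 255 CPM. The neutrophil list was 0 to 2.02 CPM, with Csf3r at 0, and the platelet list 2.73 to 32.3 CPM, with Gp1bb at 0. The red cell list was 14.97 to 5315 CPM, the highest in Maus2_2, which holds the cell named above.

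The treatment question was put to these cells in 2 ways, by their share and by their RNA. Cluster 6 made up 8.20, 6.16, 4.63 and 4.07% of all cells in the 4 mice, with 95% Wilson intervals of 6.93 to 9.69%, 5.11 to 7.40%, 3.49 to 6.12% and 3.20 to 5.17%. Both treated mice lay above both untreated mice, by 2.83 percentage points on average, and an exact two-sided permutation test of 2 against 2 mice gave p = 0.33, the smallest it can give. Among B cells and plasmablasts alone the shares were 12.6% and 9.55% against 8.08% and 6.81%, a difference of 3.61 points, also with an exact p of 0.33. Fewer cells of other types in the tube and more cells of cluster 6 cannot be told apart from shares.

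**Figure D5:**
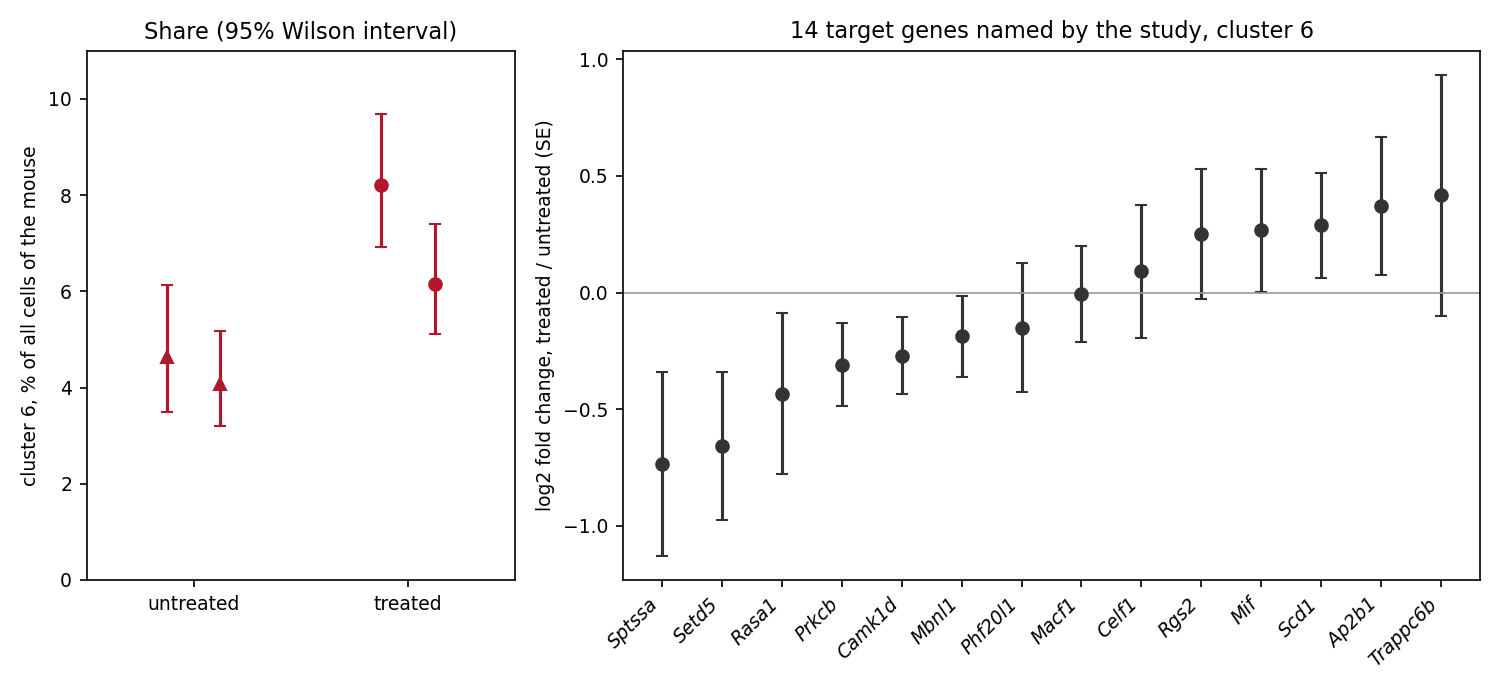
Left, share of cluster 6 among all cells of each mouse with 95% Wilson intervals, 2 untreated mice (triangles) and 2 treated mice (circles). Right, log2 fold change with SE of 14 target genes named by the study in cluster 6, treated over untreated, none with an adjusted p under 0.05; the points spread on both sides of 0.

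In the RNA, edgeR's quasi-likelihood test on the summed counts of the 4 mice called 1 of 4573 genes (0.0219%) at a Benjamini-Hochberg adjusted p under 0.05, and 304 had an unadjusted p under 0.05. The gene was Hbb-bs, a haemoglobin chain, with 30, 11, 642 and 1 UMIs, of which 610 were in the single cell of Maus2_2. Its log2 fold change was -5.07 ± 0.83 (SE; adjusted p = 0.00444), but the groups overlapped. Without that cell edgeR called 0 genes, with 316 at an unadjusted p under 0.05, and DESeq2 called 0 with all cells, with 56. The counts without Maus3_2, Maus6, Maus2_2 and Maus4_2 were 7, 3, 0 and 5.

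Since fewer than 3 genes passed, the genes with the smallest unadjusted p are given as values, none with an adjusted p under 0.05 in this test. Chchd10, a mitochondrial protein, stood at 588, 573, 343 and 384 CPM, a log2 fold change of 0.74 ± 0.19 (adjusted p = 0.371). Igf1r, the receptor for insulin-like growth factor, had 18, 13, 1 and 0 UMIs (adjusted p = 0.342), Prr13 had 38, 38, 9 and 3 UMIs, and Ndufa2, a subunit of respiratory complex I, had a log2 fold change of 0.72 ± 0.23. In the other direction Micu3, a regulator of mitochondrial calcium uptake, had 5, 2, 15 and 8 UMIs (adjusted p = 0.207), Tnpo1, a nuclear import receptor, stood at 166, 145, 292 and 309 CPM (adjusted p = 0.342), and Sorcs2 and Immp2l had log2 fold changes of -1.50 ± 0.37 and -0.77 ± 0.19.

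The 15 genes that the study named as targets of its miRNAs lay on both sides of 0. The study had picked them from known targets because they were significant between treated and untreated cells of these same mice. Its calls were in B cells and T cells, most of them lower after treatment. The placement of these genes in cluster 6 is therefore not independent of that choice. Of the 14 tested in cluster 6, 6 had a fold change above 0 and 8 below, with a median log2 fold change of -0.08, beside 0.01 over all genes. Both treated mice were below both untreated mice for 6 of the 14 and above for 1, where 22.4% and 16.4% of all tested genes were so placed. None was called by edgeR or DESeq2, and 1 had an unadjusted p under 0.05, beside 6.65% of all genes tested. Setd5, a chromatin protein, stood at 74.8, 65.5, 128 and 105 CPM, with a log2 fold change of -0.66 ± 0.32 (adjusted p = 0.709), Camk1d, a calcium-dependent kinase, at 1197, 1201, 1524 and 1497 CPM (-0.27 ± 0.16), Prkcb, a kinase of receptor signalling, at 748, 764, 895 and 1063 CPM (-0.31 ± 0.18), and Sptssa, of sphingolipid synthesis, at 58.6, 38.2, 107 and 64.9 CPM (-0.73 ± 0.39).

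Rasa1 and Mbnl1 had log2 fold changes of -0.43 ± 0.34 and -0.19 ± 0.18, and Phf20l1, Macf1 and Celf1 lay within 1 SE of 0. Rgs2, Mif, Scd1, Ap2b1 and Trappc6b had positive values, from 0.25 ± 0.28 for Rgs2 to 0.42 ± 0.52 for Trappc6b. Tnik, with 16 UMIs, was not tested. As a feature of the cluster, Rgs2, which limits G protein signals, was counted as higher than in B cells, at 1.81 (1.53 to 2.30), and Tnik, a kinase of the Wnt pathway, as lower, at -2.55 (-4.79 to -1.13).

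None of the gene lists outside the red cell list held a gene called in the treatment test. Over all 4573 genes tested, 6.65% had an unadjusted p under 0.05, the share beside which the counts below stand. The transitional list had 5 genes tested, 0 of them with an unadjusted p under 0.05, a median of 0.11 and overlapping groups for each. Vpreb3 had a log2 fold change of 0.34 ± 0.19 and Cd24a 0.10 ± 0.20. The mature list had 2 of 10 with an unadjusted p under 0.05, Fcmr, the Fc receptor for IgM (0.59 ± 0.23), and Bank1 (-0.36 ± 0.16), and a median of -0.02. For the MHC class II list the median was 0.12, with 1 of 10 under 0.05 (Cd74, 0.31 ± 0.13), and for the plasmablast list 0.09, with 1 of 10. The oxidative stress list had 6 genes tested and 1 under 0.05, Gpx1, a peroxidase (0.70 ± 0.28, adjusted p = 0.709), and a median of 0.08. The interferon and glucocorticoid lists had 2 genes tested each, 0 of them under 0.05.

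Whether cluster 6 responded otherwise than B cells was tested as an interaction within mice. Of 9219 genes 3 were called (0.0325%), Hbb-bs, Hba-a1 and Hba-a2, and 381 had an unadjusted p under 0.05; DESeq2 called 0, with 53. Without the single cell 1 was called, Hbb-bs, whose difference was -0.07 with all of Maus2_2 left out. Leaving out Maus3_2 left 1 call and leaving out Maus2_2 gave 21, of which 19 were higher in treated cluster 6 cells relative to B cells, with Cd74, Igkc and H2-Ab1 among them; the lone untreated mouse was then taken to vary like the others. For the genes outside haemoglobin the smallest adjusted p with all mice was that of Chchd10, 0.525, with a difference of 0.75 ± 0.19 on the log2 scale, and of Rap1gap2, 0.525, which had 0, 0, 1 and 9 UMIs. Nap1l4 and Micu3 had differences of 1.51 ± 0.45 and -2.36 ± 0.65, and Igf1r 4.21 ± 1.12, all with adjusted p over 0.5. Cox6a2 was counted in 15 cluster 6 UMIs only.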

How the data were processed

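Single-cell UMI counts of 4 mice were analysed. The authors deposited raw counts as whole numbers per gene and cell, with a table of each cell's UMI count, percent of mitochondrial UMIs, cell type and cluster; per the labels, Cell Ranger 7.1.0, mm10 and Seurat 4.3.0 were used. The methods describe SoupX, filters on genes per cell and mitochondrial share, and DoubletFinder; the sources used here do not give whether the deposited counts include SoupX. No doublet caller was run here, and 0 columns of sample values were left unused.

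Counts were summed per mouse and population, 195485 to 494742 UMIs per mouse in cluster 6. Ratios between clusters used CPM with a prior count of 0.5 scaled to library size, at least 20 UMIs over both populations, and a 2-fold difference in every mouse. Thinning drew 1000 UMIs per cell. Treatment and interaction were fitted with edgeR 4.0.16 (R 4.3.3; filterByExpr, TMM, quasi-likelihood, Benjamini-Hochberg, 0.05), the interaction with mouse as a block; DESeq2 1.42.0 was an alternative. The scripts were tested on simulated data. With 2 mice per group, the p-values of edgeR and DESeq2 rest on a spread between mice estimated partly over all genes. They do not measure the spread of 1 gene alone, and intervals cover counting error only. The members, the 25 gene lists and tests were chosen with earlier results of these data known. Named are the 10 largest ratios per direction (variable segments counted only), the 5 smallest p per direction where fewer than 3 genes passed, and list members counted as higher or lower, defining or abundant. Promoters are from RefSeq (GRCm38.p6). RefSeq proteins were not used here. Some genes that the rules or lists would name are not reported here, and lists and per-cell sums leave them out.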

Additional observations from a re-analysis of the deposited data

Results flagged for a closer look

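Haemoglobin genes differed in their treatment effect between cluster 6 and B cells by the interaction test. The differences, treated over untreated in cluster 6 minus the same in B cells, were -9.09 ± 0.71 for Hbb-bs (log2 ± SE; adjusted p = 1.82e-11), -8.00 ± 1.20 for Hba-a1 (adjusted p = 2.29e-04) and -6.55 ± 0.86 for Hba-a2 (adjusted p = 1.95e-05), all by edgeR. In cluster 6 the UMIs of Hba-a1 were 12, 0, 223 and 0 UMIs, and of Hba-a2 12, 0, 173 and 0 UMIs. One cell of Maus2_2 held 986 haemoglobin UMIs, and without it only Hbb-bs was called. With all of Maus2_2 left out, the difference for Hbb-bs was -0.07. With 2 mice per group no mouse could be set apart from the others of its group.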

How the results depend on the processing

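The treatment test called 1 gene, 0 with DESeq2, 2 with equal cell numbers per mouse, 7 without a filter on low counts, 0 without the haemoglobin-rich cell and 0 to 7 with a mouse left out. The interaction called 3 genes, 0 with DESeq2, 1 without that cell and 1 to 21 with a mouse left out. With a mouse left out the log2 fold change of Hbb-bs ran from -6.06 to 3.23. The interactions of Hba-a2 and Hba-a1 ran from -7.54 to 5.24 and from -11.14 to 5.22. These haemoglobin values changed sign without Maus2_2. The interaction of Hbb-bs ran from -15.52 to -0.07 and was smallest in size without Maus2_2.

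Against B cells, genes counted as higher were 134 after thinning, 137 at a minimum of 100 UMIs and 259 to 319 with a mouse left out; genes counted as lower were 110 at 100 UMIs and 349 to 387 with a mouse left out. Against cluster 9 the higher genes were 103 after thinning, 63 at 100 UMIs and 264 to 301 with a mouse left out, and the lower ones 16, 18 and 43 to 57. TMM scaling moved the list medians to 0.19 (plasmablast), -0.74 (mature), 0.25 (receptor signalling), 0.42 (lineage factors) and -1.19 (MHC class II) as it moved the median of all genes to -0.19. Thinning moved the plasmablast median to 0.11 and that of MHC class II to -1.17. With a mouse left out the medians ran from 0.44 to 0.65 (plasmablast), -0.60 to -0.37 (mature), 2.68 to 2.96 (transitional), 0.49 to 0.53 (receptor signalling), 0.61 to 0.70 (lineage factors) and -1.11 to -0.86 (MHC class II), and the share difference from 1.81 to 3.85 points. Iglc1 had a log2 ratio of 2.87 with cluster 9 added to the reference; this alternative and those without the haemoglobin-rich cell were chosen after seeing the data. The cause of these shifts was not tested. None of the medians of these 6 lists, against B cells, changed sign under the alternatives run for them; the other lists were not recomputed. No paired analysis was possible because treated and untreated mice are different animals and share no replicate number.

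Depth limits the genes with few UMIs, 213 of the 300 lower ones having at most 3 in cluster 6, and 2 mice per group limit the treatment tests.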

Other observations

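Over the 11219 genes compared with B cells, the mean profile of cluster 6 (log2 of CPM + 1) had a Pearson correlation of 0.927 with B cells of author cluster 0, 0.917 with cluster 1, 0.921 with cluster 2 and 0.863 with cluster 10, and of 0.876 with cluster 9. This is across genes, which are not independent, and clusters 9 and 10 have much smaller sums than the others. Cluster 9 had 0.928, 0.919, 0.921 and 0.853 with the same 4 clusters.

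The 80 B cells of author cluster 10 had a summed plasmablast list close to that of cluster 6, 1370.0 ± 54.9 CPM against 1409.8 ± 52.4 CPM (SD, n = 4 mice), where clusters 0, 1 and 2 had 947, 981 and 879.6 CPM. Their Ighm UMIs per Ighd UMI were 9.04, 7.84, 10.3 and 11.3, between the other B cells and cluster 6, and their summed transitional list was not higher than in clusters 0 to 2 beyond its spread.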
